A study of Mus musculus with 12 samples.

Results

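The potassium channel genes were taken as the genes whose symbol begins with Kcn, followed by further letters and a digit. They numbered 96 of the 24062 genes measured in brain and spleen, and 93 of the 96 are protein coding. The study deleted Norad, a long noncoding RNA that binds PUMILIO proteins and so limits the repression of their target mRNAs, and asked what its loss does to mouse tissues. RNA from whole brain and spleen of 10-week-old male C57BL/6 mice was sequenced from 3 Norad-/- and 3 Norad+/+ animals per tissue. The Norad-/- mice carry a deletion made with Cas9 and a pair of guide RNAs in C57BL/6J oocytes. The study kept 3 founder lines, and which of them gave these libraries is not given in the sources used here. The animals behind each library are not named either, so brain and spleen libraries may share animals. Libraries were made from poly(A) RNA and levels are in FPKM, read fragments per kilobase of transcript scaled to the mapped fragments of each library, so they can be compared between genes of different length.

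Potassium channels let potassium flow out of the cell, which holds the resting potential and ends the action potential. Pore subunits fall into voltage-gated, calcium- or sodium-activated, inward rectifier and tandem-pore families, and auxiliary subunits change how the pores open or reach the membrane. Neurons combine many of these subunits to set how often they fire, while immune cells use a few of them to keep calcium entering during activation. PUMILIO proteins bind the Pumilio response element (PRE), UGUANAUA, in 3′ UTRs, so the channel mRNAs were also searched for this motif.

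Of the 93 channel genes with an annotated 3′ UTR, 25 (26.9%) held at least 1 PRE in the longest one, against 23.99% of all 19252 genes with a 3′ UTR. At least 2 PREs were found in 13 channel genes (14.0%), against 7.49% of all genes. The channel 3′ UTRs were also longer, with a median of 1756 bases against 1001 bases, and over their whole length they held 0.216 PREs per kilobase against 0.234. The motif was searched as TGTANATA on the transcribed strand, with overlapping matches counted. Kcna2, a voltage-gated subunit of axons, held 9, the highest count of any channel gene, in a 3′ UTR of 9401 bases. The sites below belong to the 4 channel genes with at least 2 PREs that averaged 1 FPKM or more in spleen, whose genotype values are given further on. Kcnj10 and Kcnj16 each hold 2, and the Kcnj10 sites lie 10 bases apart and share part of their flanks. Of the 2 sites of Kcnj2, 1 is shown, and of the 9 of Kcna2, 3 are shown. Each is printed 5′ to 3′ from the GENCODE transcript (GRCm38), with the motif in capitals.
Kcnj10, chr1:172372884-172372913 (+): atacagagaaaTGTACATAgatgtacatat
Kcnj10, chr1:172372894-172372923 (+): atgtacatagaTGTACATAtacccaaatat
Kcnj16, chr11:111026733-111026762 (+): gttgatttgatTGTAAATAagaggaataaa
Kcnj16, chr11:111027320-111027349 (+): taatgcacatgTGTAGATAaatctttcgtt
Kcnj2, chr11:111075625-111075654 (+): ttaaagccaaaTGTAAATAgaaatctgtaa
Kcna2, chr3:107106864-107106893 (+): tgtgggttcaaTGTATATAaatatatatca
Kcna2, chr3:107114858-107114887 (+): cttatcatgggTGTACATAgacttcataga
Kcna2, chr3:107114891-107114920 (+): ccacagtctttTGTAAATAttgacacaagt
A match is a description of the sequence, and whether PUMILIO binds there was not analysed here.

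Norad itself was at 0 to 0.0121 FPKM in Norad-/- brain against 206 to 635 FPKM in Norad+/+ brain. In spleen it was at 0 to 0.0173 FPKM in Norad-/- and 42.9 to 62.0 FPKM in Norad+/+ libraries. Summed levels of 5 neuronal markers were 1632 to 2335 FPKM in brain and 2.21 to 15.7 FPKM in spleen, and 5 B cell markers summed to 0.508 to 3.74 FPKM in brain and 1215 to 1585 FPKM in spleen. Depth, estimated roughly from the FPKM that 1 read is worth, was 28.3 to 36.5 M reads per library. By that estimate 1 read in a 3-kilobase transcript was worth about 0.0091 to 0.0118 FPKM. Replicate 3 of each Norad+/+ group stood apart, with a median Spearman correlation to the other libraries of its tissue of 0.980 in brain (others at least 0.984) and 0.972 in spleen (others at least 0.977). Norad-/- brain replicate 3 held pituitary transcripts, with 5 markers summing to 1328 FPKM against 0.205 to 1.04 FPKM in the other brain libraries.

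In brain, 71 of the 96 channel genes reached a mean of 1 FPKM over the 6 libraries and 36 reached 10 FPKM. In spleen 19 reached 1 FPKM and 4 reached 10 FPKM. Both tissues held 16 at this level, only spleen held Kcnn4, Kcnk5 and Kcne4, and 22 stayed under 1 FPKM in both. Kcnk16 was listed at 0 in all 12 libraries. Summed over the 96 genes, the level was 1265 to 1470 FPKM in the brain libraries and 115 to 150 FPKM in the spleen libraries. Every brain library lay above every spleen library for 74 channel genes, where 27.7% of all genes did so, and every spleen library above every brain library for 9, where 28.2% of all genes did so.

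**Figure D1:**
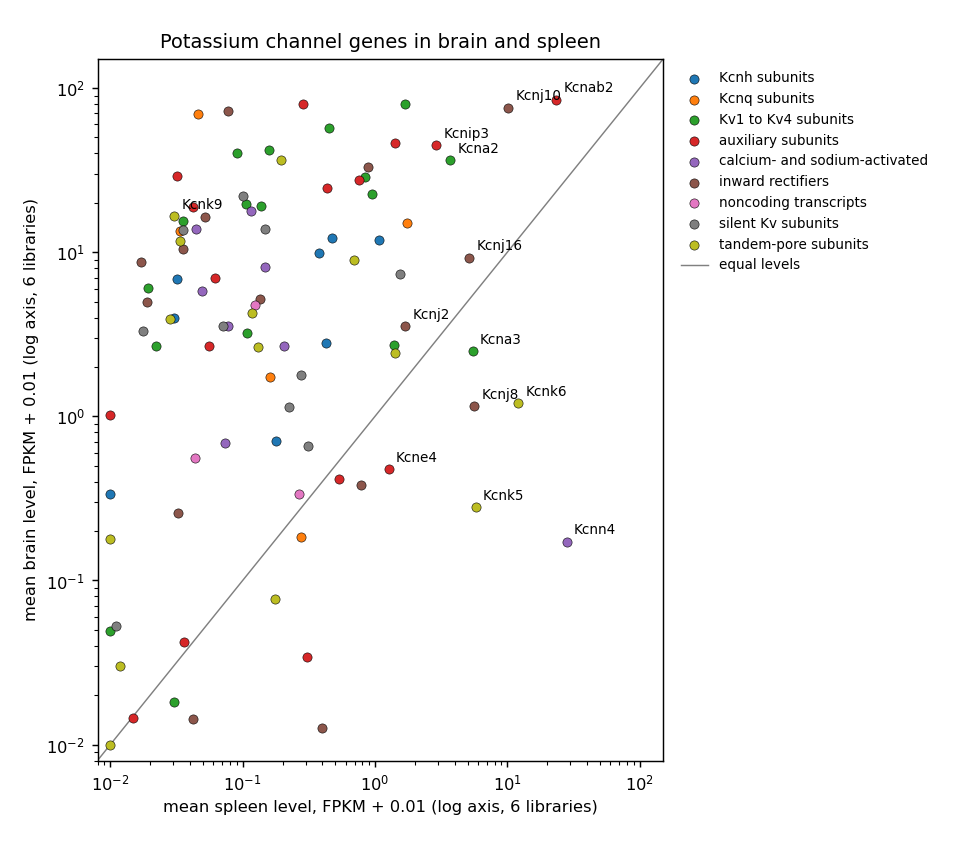
Mean brain level (vertical) against mean spleen level (horizontal) of the 96 channel genes, each in FPKM plus 0.01 on a log axis and over 6 libraries, coloured by family, with a line of equal levels. Kcnk9 sits at the upper left, and Kcnn4, Kcnk5, Kcnk6, Kcnj8 and Kcna3 lie below the line.

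The comparison of tissues was made with limma on log2(FPKM + 0.1) over 14192 genes that averaged 1 FPKM or more across all 12 libraries, of which 70 were channel genes. In Norad-/- mice 65 of the 70 were higher and 5 lower in brain than in spleen at an adjusted p under 0.05, beside 38.4% of all genes tested that were higher and 44% that were lower. Among Norad+/+ mice 64 were higher and 5 lower, beside 37% and 45.7% of all genes tested. The median log2 difference of the 70 was 5.09 in Norad-/- and 4.96 in Norad+/+ mice, beside medians over all genes of -0.16 and -0.23. The same 64 were higher in both genotypes and the same 5 were lower. The remaining gene, Kcnj16, was higher in brain in Norad-/- mice (log2 difference 1.25 ± 0.26, SE, adjusted p = 0.000943) and missed the threshold in Norad+/+ mice (0.59 ± 0.26, adjusted p = 0.056). Because these are bulk samples, fewer cells of a type and less RNA per cell cannot be told apart. The other 26 channel genes were not tested between tissues, and none of them had a tissue mean above 1.72 FPKM.

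Voltage-gated subunits of the Kcna, Kcnb, Kcnc and Kcnd groups made up 28.03% of the summed channel level in brain and 11.7% in spleen. Of 17 such genes, 15 reached 1 FPKM in brain and 4 in spleen. Kcnc1, which lets neurons fire fast, was among the highest in brain, at 52.8, 54.0 and 55.2 FPKM in Norad-/- brain against 69.0, 70.3 and 40.7 FPKM in Norad+/+ brain. The Norad+/+ brains held both the highest and the lowest Kcnc1 level, so the groups overlapped. Kcna1, Kcnd2 and Kcna2, subunits of axonal and dendritic channels, followed with 28.5 to 49.6 FPKM over the brain libraries. Kcnd2, the pore of a fast-inactivating dendritic current, was at 49.6, 35.0 and 35.0 FPKM in Norad-/- brain and 49.2, 36.7 and 35.5 FPKM in Norad+/+ brain. The replicate 1 brains of both genotypes were thus the highest.

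Kcna3, a voltage-gated channel subunit of T cells, was the one gene of this group that was lower in brain. It was at 2.92, 2.58 and 2.26 FPKM in Norad-/- brain, against 6.68, 5.96 and 5.69 FPKM in Norad-/- spleen. In Norad+/+ mice it was at 2.75, 2.77 and 1.65 FPKM in brain and 5.82, 5.48 and 3.14 FPKM in spleen. The lowest spleen value, in Norad+/+ replicate 3, still lay above all 6 brain values, and the log2 difference was -1.21 ± 0.25 in Norad-/- (adjusted p = 0.000862) and -0.97 ± 0.25 in Norad+/+ mice (SE, adjusted p = 0.00385). Kcna2 was next in spleen, with 3.01 to 4.36 FPKM.

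The silent subunits (Kcnf, Kcng, Kcns and Kcnv), which form no channel alone and modify Kcnb channels, held 4.99% of the brain sum and 2.06% of the spleen sum. Kcnf1 led in brain at 14.8 to 25.7 FPKM and Kcng1 led in spleen at 1.16 to 1.71 FPKM. The Kcnq subunits, which carry a slow current that restrains repeated firing, held 7.41% of the brain sum, and Kcnh subunits held 3.60%. Kcnh3 was the highest Kcnh gene in brain at 11.1 to 13.7 FPKM, and Kcnh2, known for cardiac repolarisation, was the highest in spleen at 0.829 to 1.34 FPKM. Kcnq5 was the Kcnq gene of spleen, with 1.26 to 2.14 FPKM.

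Calcium- and sodium-activated subunits gave the largest contrast in the other direction. Kcnn4, the calcium-activated channel of red cells and activated lymphocytes, was at 0.152, 0.158 and 0.0922 FPKM in Norad-/- brain, against 21.1, 21.2 and 28.1 FPKM in Norad-/- spleen. In Norad+/+ mice it was at 0.108, 0.195 and 0.269 FPKM in brain, against 23.5, 32.2 and 42.2 FPKM in spleen. No library of one tissue came near those of the other, and the log2 difference of brain against spleen was -6.65 ± 0.26 in Norad-/- (adjusted p = 6.6e-10) and -6.81 ± 0.26 in Norad+/+ mice (SE, adjusted p = 6.09e-10). The other 7 genes of the group were higher in brain in FPKM, with Kcnn2, a channel of the after-hyperpolarisation, leading at a mean of 17.7 FPKM. Kcnn4 was the highest channel gene of spleen on average, and with Kcnab2 and Kcnk6 it made up 49.4% of the summed spleen level, where the top 3 of brain held 18.2%.

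Inward rectifiers held 17.9% of the brain sum and 19.5% of the spleen sum, with 11 and 4 of 15 genes at 1 FPKM or more. Kcnj10, which clears potassium around neurons through astrocytes, was the highest of them in both tissues, at 67.3 to 88.4 FPKM in brain and 5.63 to 15.9 FPKM in spleen. Kcnj8, the pore of ATP-sensitive channels in vascular muscle, was lower in brain, with 0.863 to 1.62 FPKM against 5.05 to 6.75 FPKM in spleen. Its log2 difference was -2.16 ± 0.19 in Norad-/- (adjusted p = 8.77e-07) and -2.27 ± 0.19 in Norad+/+ mice (SE, adjusted p = 5.51e-07). Kcnj3, Kcnj6 and Kcnj9, which open after G protein signalling and slow neurons, were at 5.94 to 121 FPKM in brain, and of these only Kcnj9 passed 0.3 FPKM in any spleen library.

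Tandem-pore subunits, which carry background leak currents, held 6.57% of the brain sum and 15.99% of the spleen sum. Kcnk1 was the highest in brain at 31.0 to 44.0 FPKM, and Kcnk9 followed at 12.69 to 20.04 FPKM. Kcnk6, a leak channel subunit found in many tissues, was at 0.876 to 1.44 FPKM over the brain libraries. In spleen it was at 11.7, 12.9 and 13.9 FPKM in Norad-/- and 11.1, 12.1 and 10.6 FPKM in Norad+/+ libraries. Its log2 difference of brain against spleen was -3.22 ± 0.15 in Norad-/- (adjusted p = 3.39e-09) and -3.26 ± 0.15 in Norad+/+ mice (SE, adjusted p = 3.13e-09). Kcnk5, an alkaline-activated leak channel, was at 0.156 to 0.352 FPKM in brain and 5.27 to 6.38 FPKM in spleen, a log2 difference of -3.86 ± 0.15 in Norad-/- (adjusted p = 5.8e-10) and -4.17 ± 0.15 in Norad+/+ mice (adjusted p = 3.73e-10).

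Auxiliary subunits held 27.2% of the brain sum and 24.5% of the spleen sum. Kcnab2, a cytoplasmic partner of Kcna channels, was the highest channel gene of brain at 70.7 to 91.6 FPKM and was also high in spleen at 20.6 to 26.9 FPKM. Kcnip4 and Kcnip3, calcium-binding partners of Kcnd channels, reached 63.6 to 104 and 36.8 to 54.1 FPKM in brain. Kcne4, an inhibitory partner of Kcnq1, was the auxiliary gene of spleen that stayed under 1 FPKM in brain, with 0.266 to 0.616 FPKM in brain against 0.961 to 1.61 FPKM in spleen. The 3 noncoding genes are antisense to channel genes. Only Kcnmb4os1 averaged 1 FPKM or more in brain, at 2.78 to 8.64 FPKM. None did so in spleen, where Kcnq1ot1 was the highest on average at 0.228 to 0.291 FPKM.

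The log2 differences were largest where spleen was near 0, and there the added 0.1 FPKM limits their size. In Norad-/- mice Kcnj3 (9.61), Kcnd2 (8.39), Kcnab1 (8.17) and Kcnip4 (7.86) were among the largest, with Kcna1, Kcnip1, Kcnj4 and Kcnf1 at 7.38 to 7.76. Kcnk9 was listed at 0 in all 3 Norad-/- spleens and is given no difference there. In Norad+/+ mice they included Kcnd2 (7.73), Kcnip4 (7.69), Kcnj3 (7.66) and Kcna1 (7.28), with Kcnip1, Kcnk1, Kcnc1 and Kcnc2 at 6.795 to 6.92. Kcnk9 (6.97) was listed at 0 in Norad+/+ spleen replicates 1 and 2 and at 0.122 FPKM in replicate 3. Its difference there rests on that library and on the added 0.1 FPKM. Without Norad+/+ spleen replicate 3 the Norad+/+ difference of Kcnd2 was 8.43.

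That library held more channel RNA of the brain-expressed kind than the other spleens. Of the 50 channel genes averaging 1 FPKM or more in brain and under 0.5 FPKM in spleen, 36 were highest in Norad+/+ spleen replicate 3, as were 62.0% of all 1962 genes chosen the same way. Their sum there was 9.92 FPKM, against 4.35 to 5.44 FPKM in the 3 Norad-/- spleens and 4.32 and 4.83 FPKM in the other Norad+/+ spleens. The 5 neuronal markers summed to 15.7 FPKM in this library and 2.21 to 4.38 FPKM in the other spleens, 4 pancreas markers to 213 FPKM against 3.14 to 9.55 FPKM, and 4 liver markers to 86.2 FPKM against 0.0653 to 0.492 FPKM. Their part in the channel levels was not tested.

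**Figure D2:**
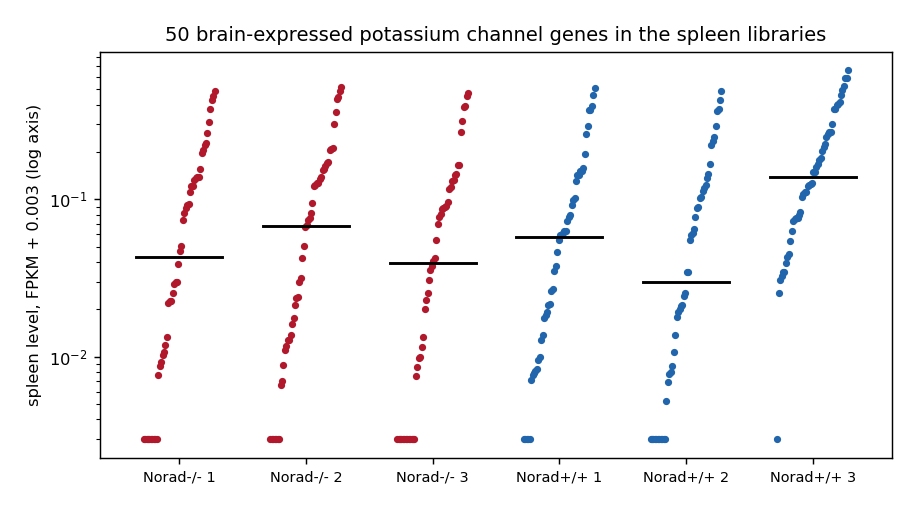
Spleen level (FPKM plus 0.003, log axis) of the 50 channel genes expressed in brain and low in spleen, 1 point per gene and a black bar at the median, for the 3 Norad-/- (red) and 3 Norad+/+ (blue) libraries. The median of Norad+/+ replicate 3, 0.136 FPKM, lies above the medians of the other libraries, 0.0271 to 0.0651 FPKM.

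The genotypes were compared within each tissue. In spleen no channel gene passed an adjusted p of 0.05 among the 19 tested, where 0.0323% of the 12397 genes tested did. That background of 4 genes became 93 without Norad-/- replicate 3, 20 without Norad+/+ replicate 1 and 15 without Norad+/+ replicate 3, still with 0 channel genes. At an unadjusted p under 0.05, 2 of the 19 were higher and 3 lower in Norad-/- spleen, beside 920 and 1680 of the 12397 genes tested. The groups did not overlap for 6 channel genes higher in Norad-/- spleen, beside 11.6% of all genes tested, and for 3 lower, beside 14.9%. The median log2 fold change of the 19 was 0.16, against -0.02 over all genes tested, and it was -0.11 when genes under 1 FPKM were kept. The smallest adjusted p of a channel gene was 0.138.

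The 3 lowest-p genes of spleen were all lower in Norad-/- libraries. Kcnj10 was at 6.24, 5.63 and 7.59 FPKM in Norad-/- spleen, against 14.7, 10.9 and 15.9 FPKM in Norad+/+ spleen. All Norad-/- values lay below all Norad+/+ values, with a log2 fold change of -1.07 ± 0.18 (SE, limma adjusted p = 0.138). Kcnj16, whose protein joins that of Kcnj10 in one channel, was at 2.31, 3.74 and 4.16 FPKM in Norad-/- spleen, against 8.67, 6.43 and 5.65 FPKM in Norad+/+ spleen. Those groups did not overlap either, with a log2 fold change of -1.02 ± 0.26 (adjusted p = 0.167). Kcna2 was at 3.08, 3.01 and 3.49 FPKM in Norad-/- spleen, against 4.36, 3.93 and 4.17 FPKM in Norad+/+ spleen, again without overlap (-0.37 ± 0.10, adjusted p = 0.178). In brain the same 3 genes had log2 fold changes of -0.06, -0.36 and -0.16, and their groups overlapped.

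Kcnj10 lies on the forward strand of chr1:172341210-172374085, and Kcnj9 ends 11.9 kilobases before it on the reverse strand. Kcnj9 averaged under 1 FPKM in spleen and was not tested there with the filter. It was at 0.478, 0.381 and 0.604 FPKM in Norad-/- spleen, against 1.198, 0.962 and 1.63 FPKM in Norad+/+ spleen. These groups were apart too, and without the filter its log2 fold change was -1.201 ± 0.25 (adjusted p = 0.205). Kcnj16 and Kcnj2 are neighbours as well, 38.2 kilobases apart on chromosome 11, and Kcnj2 was at 1.47, 1.36 and 1.71 FPKM in Norad-/- spleen, against 1.69, 1.94 and 1.94 FPKM in Norad+/+ spleen. Here 1 Norad-/- value exceeded 1 Norad+/+ value, and the log2 fold change was -0.28 ± 0.15 (adjusted p = 0.316).

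Kcnj10, Kcnj16, Kcna2 and Kcnj2 were the 4 channel genes tested in spleen with at least 2 PREs, and the sites printed above are from them. All 4 had a log2 fold change below 0, with a median of -0.70. Of the 15 channel genes tested with 0 or 1 PRE, 4 were below 0 and the median was 0.23. Over all genes tested in spleen, 47.0% of the 895 with at least 2 PREs and 54.6% of the 10326 with 0 or 1 were below 0. In brain, 6 of 12 channel genes with at least 2 PREs were below 0 (median -0.02), as were 24 of 58 with 0 or 1 (median 0.05). Kcnj9, which was low in Norad-/- spleen beside Kcnj10, held no PRE.

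**Figure D3:**
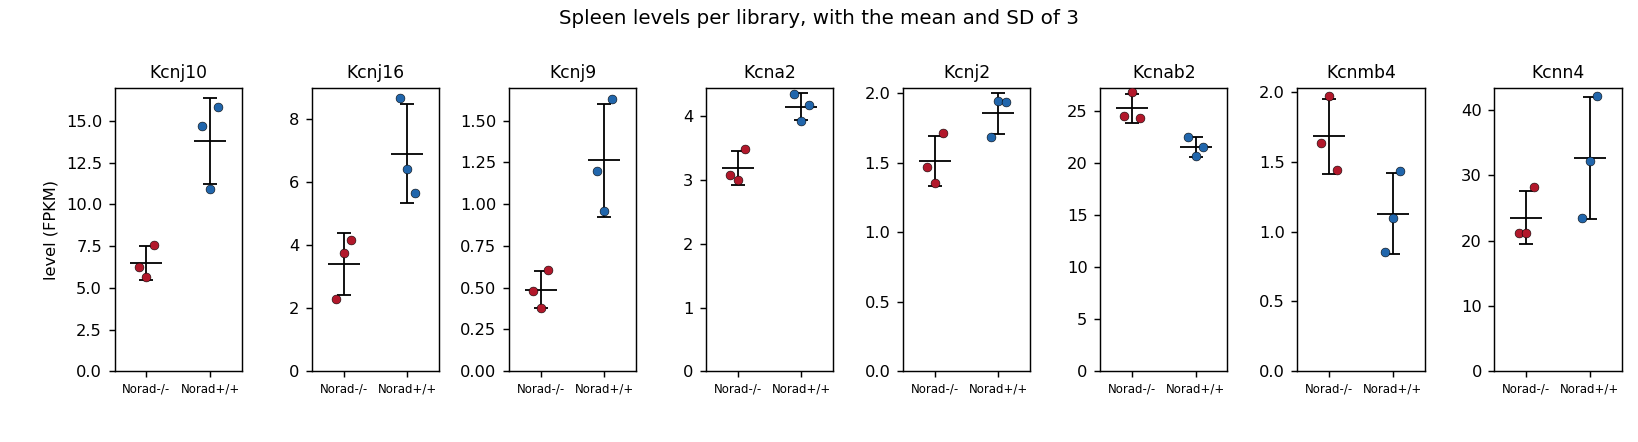
Spleen level in FPKM of 8 channel genes, 1 point per library for Norad-/- (red, left) and Norad+/+ (blue, right), with bars for the mean and SD of 3. Kcnj10, Kcnj16, Kcnj9 and Kcna2 show Norad-/- points below all Norad+/+ points, and Kcnab2 and Kcnmb4 show them above.

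Cell type markers also varied between these spleens. Markers of red cell precursors (6 genes) summed to 888, 872 and 3820 FPKM in Norad-/- and 2045, 5676 and 5353 FPKM in Norad+/+ spleen. Myeloid markers (5 genes) summed to 1600, 1512 and 2493 FPKM against 2249, 3497 and 3118 FPKM. T cell markers (5 genes) summed to 310, 334 and 278 FPKM in Norad-/- spleen, above the 225, 188 and 196 FPKM of Norad+/+ spleen. Their part in the channel levels was not tested. Kcnn4, whose spleen values are given above, had overlapping genotype groups (log2 fold change -0.45 ± 0.23, adjusted p = 0.316).

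Of the 19 channel genes tested in spleen, 11 had a log2 fold change above 0, and none passed the threshold. The 5 of lowest p among these 11 held the 4 auxiliary subunits that were tested. Kcnab2 was at 24.5, 26.9 and 24.3 FPKM in Norad-/- spleen, against 22.5, 20.6 and 21.5 FPKM in Norad+/+ spleen. The groups were apart by a small step (log2 fold change 0.23 ± 0.08, adjusted p = 0.199). Kcnmb4, a partner of large-conductance calcium-activated channels, was at 1.64, 1.97 and 1.44 FPKM in Norad-/- spleen, against 0.854, 1.10 and 1.43 FPKM in Norad+/+ spleen (0.55 ± 0.23, adjusted p = 0.237). Kcne4 (0.43), Kcnip3 (0.31) and the tandem-pore gene Kcnk6 (0.19) had adjusted p of 0.24, 0.296 and 0.319. Kcnk13, a tandem-pore gene known from microglia, changed by -0.40 ± 0.19 on the log2 scale (adjusted p = 0.277) with overlapping groups.

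In brain no channel gene passed an adjusted p of 0.05 among 71 tested, where 0.0153% of the 13051 genes tested did. At an unadjusted p under 0.05, 4 of the 71 were higher and 5 lower in Norad-/- brain, beside 487 and 377 of the 13051 genes tested. The groups did not overlap for 11 channel genes higher in Norad-/- brain, beside 10.6% of all genes tested, and for 6 lower, beside 6.56%. The background of 2 genes became 9 without Norad+/+ replicate 2 and 15 without Norad+/+ replicate 3, still with 0 channel genes. The median log2 fold change was 0.03, against 0.02 over all genes tested, and it was -0.02 without Norad+/+ replicate 3. The smallest adjusted p was 0.276.

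Kcna5, a delayed rectifier subunit known from heart and vascular muscle, had the lowest p. It was at 4.01, 4.82 and 4.77 FPKM in Norad-/- brain, against 2.33, 1.96 and 1.38 FPKM in Norad+/+ brain. The groups were well apart, with a log2 fold change of 1.25 ± 0.20 (SE, limma adjusted p = 0.276), which was 1.05 to 1.40 when any 1 brain library was left out. Kcna5 lies beside Kcna1 and Kcna6 on chromosome 6, and those had log2 fold changes of -0.04 and -0.00 with overlapping groups. Kcnh4, of the Kcnh family, was at 3.41, 3.33 and 3.24 FPKM against 2.80, 2.24 and 1.77 FPKM (0.55 ± 0.17, adjusted p = 0.69). Kcns2 (0.36), Kcnt2 (0.20) and Kcnf1 (0.37), a pair of silent subunits and a sodium-activated one, had adjusted p of 0.718 each, and their groups did not overlap.

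The genes with lower values in Norad-/- brain came from several families. Kcnmb4 was at 37.0, 35.8 and 43.2 FPKM in Norad-/- brain, against 55.2, 50.9 and 55.9 FPKM in Norad+/+ brain. The groups did not overlap, and the log2 fold change was -0.48 ± 0.11 (adjusted p = 0.605). Kcnmb4os1 overlaps it on the opposite strand, at 3.94, 4.01 and 5.53 FPKM in Norad-/- and 3.70, 2.78 and 8.64 FPKM in Norad+/+ brain, and the libraries were stranded, but whether the levels were made with regard to strand is not given in the sources used here, so the reads of both genes may be mixed. Kcnj6, a G protein-gated subunit, was at 7.34, 7.65 and 5.94 FPKM in Norad-/- brain, against 10.98, 11.64 and 8.76 FPKM in Norad+/+ brain (-0.58 ± 0.15, adjusted p = 0.659). Here too every Norad-/- value lay below every Norad+/+ value. Kcnk3, an acid-inhibited leak channel, was at 7.61, 7.63 and 8.43 FPKM against 10.4, 9.49 and 10.4 FPKM (-0.35 ± 0.09, adjusted p = 0.659). Kcnk13 (-0.39 ± 0.12) and Kcnj12 (-0.81 ± 0.30), a classical inward rectifier with 1 high value of 9.56 FPKM in Norad+/+ replicate 1, had adjusted p of 0.69 and 0.711.

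**Figure D4:**
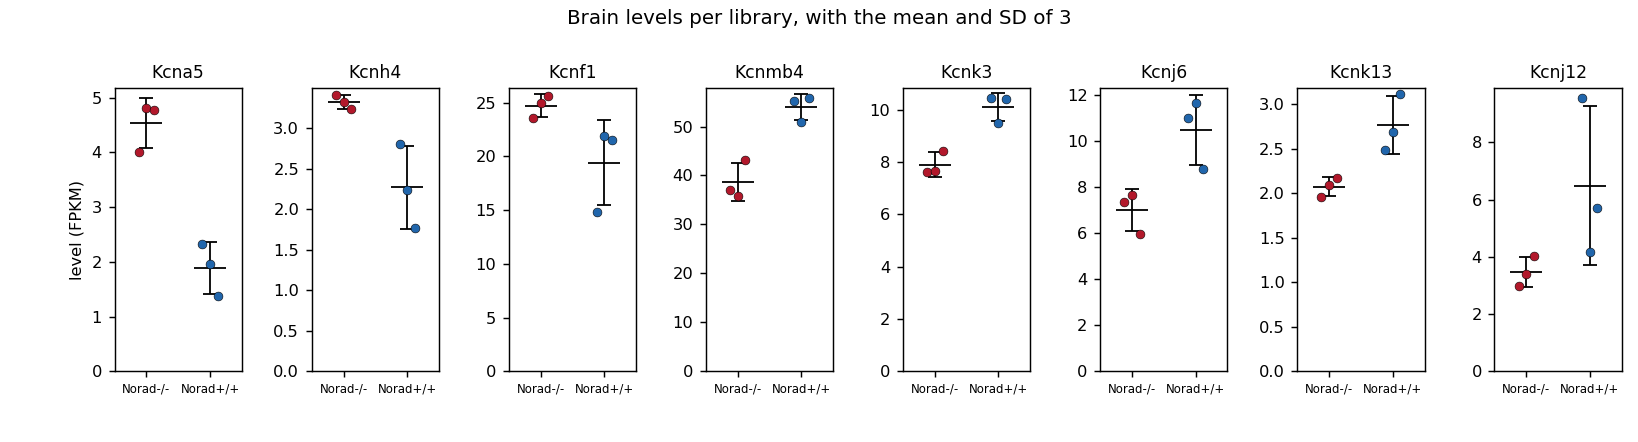
Brain level in FPKM of 8 channel genes, 1 point per library for Norad-/- (red, left) and Norad+/+ (blue, right), with bars for the mean and SD of 3. The groups do not overlap in any panel, with Kcna5, Kcnh4 and Kcnf1 higher and the other 5 lower in Norad-/- brain.

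Whether the genotype difference itself differed between the tissues was tested as an interaction over the same 14192 genes. No channel gene of 70 passed, and 0% of all genes did. An unadjusted p under 0.05 was found for 9 of the 70 channel genes and 2089 of the 14192 genes tested. The lowest adjusted p values were those of Kcnj10 (brain minus spleen 1.02 ± 0.22, SE, adjusted p = 0.187), Kcnmb4 (-1.04) and Kcnj9 (1.12), both at an adjusted p of 0.195. Kcnmb4 had Norad-/- values below Norad+/+ values in brain and, by a margin of 1.44 against 1.43 FPKM, above them in spleen. When Norad-/- spleen replicate 3 was left out, these 3 genes passed, with adjusted p of 0.0406 for Kcnj10, 0.0437 for Kcnj9 and 0.0499 for Kcnmb4, as 317 of all genes (2.23%) then did.

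Several channel genes varied more between brain libraries of one genotype than between genotypes. Of the 71 genes at 1 FPKM or more in brain, 33 had a highest level under 1.5 times the lowest over the 6 libraries, and 8 had one over 3 times it. The 8 include Kcna5 and Kcnj12, whose genotype groups did not overlap. Kcnab1, a cytoplasmic partner of Kcna channels with 6 annotated transcripts, was at 32.1, 35.7 and 38.8 FPKM in Norad-/- brain and 33.5, 1.41 and 34.1 FPKM in Norad+/+ brain. The single low library, Norad+/+ replicate 2, was 27.5-fold under the highest. Kcnj3, with 3 annotated transcripts, was at 44.6, 117 and 121 FPKM in Norad-/- and 27.8, 105 and 20.9 FPKM in Norad+/+ brain. Both genotypes held high and low libraries, and the genotype log2 fold change of Kcnj3 was 1.12 ± 0.68 (adjusted p = 0.719). Kcnq3, a subunit of the slow current named above, was at 10.49, 17.03 and 19.62 FPKM in Norad-/- and 10.7, 17.5 and 5.42 FPKM in Norad+/+ brain, and Kcnk12, a tandem-pore subunit, was at 5.30, 3.63 and 2.95 FPKM in Norad-/- and 7.20, 1.90 and 2.61 FPKM in Norad+/+ brain. How the reads of these genes fell on their transcripts was not analysed here.

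**Figure D5:**
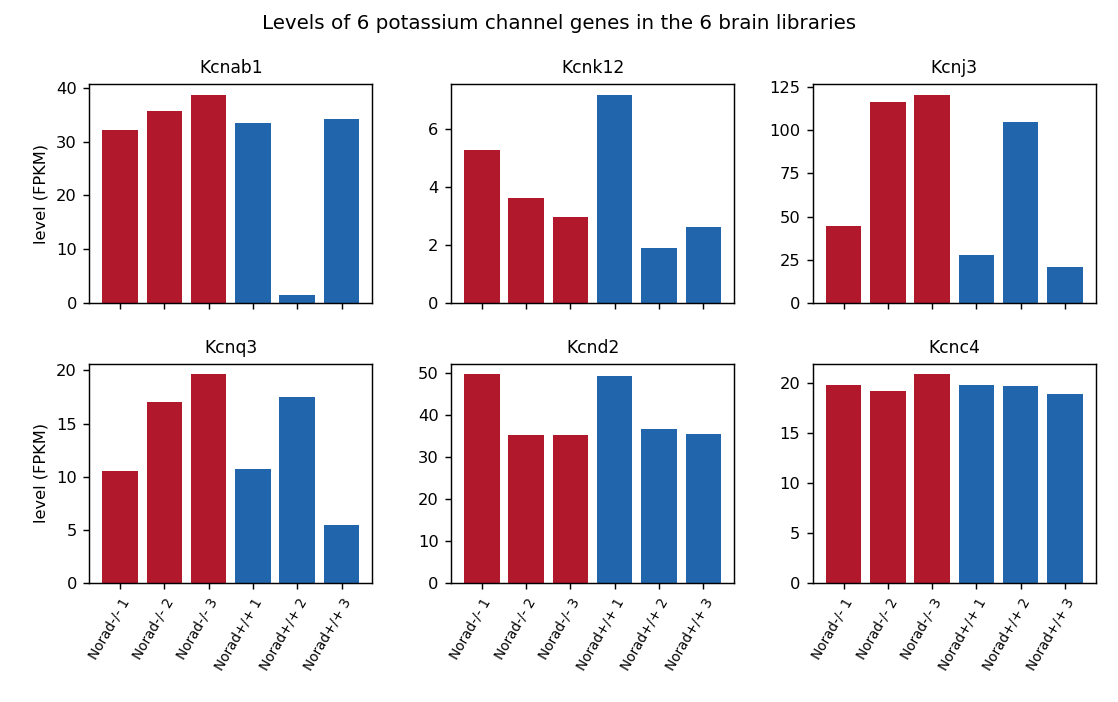
Brain level in FPKM of 6 channel genes, 1 bar per library for Norad-/- (red) and Norad+/+ (blue) replicates 1 to 3. Kcnab1 has 1 low library (1.41 FPKM), Kcnk12, Kcnj3 and Kcnq3 vary within both genotypes, Kcnd2 is highest in both replicate 1 brains, and Kcnc4 stays at 18.9 to 20.8 FPKM.

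By contrast, Kcnc4 stayed at 18.9 to 20.8 FPKM over all 6 brains. Some genes followed the replicate number in both genotypes. Both replicate 3 brains lay below the other 4 for 12 channel genes, among them Kcna1, Kcna2, Kcna3 and Kcna6, where 9.22% of all genes tested did so, and above them for 5, where 19.6% did. Both replicate 1 brains lay above the others for 3 of the 71 channel genes, Kcnd2, Kcng1 and Kcnk12, where 3.26% of all genes did so. They lay below the others for 1, where 9.18% of all genes did. Both replicate 2 brains lay above the others for 4, where 3.70% of all genes did, and below them for 0, where 2.99% did. Norad+/+ brain replicate 3 alone was the lowest library for 37 of the 71 channel genes, as it was for 35.8% of all genes tested. These counts were made after the values were seen.

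Other genes of potassium handling were counted the same way. Of 4 HCN channels, which carry a mixed cation current on hyperpolarisation, all 4 were higher in brain than in spleen in both genotypes. Of 9 tested partner proteins, such as Dpp6 and Dpp10 of Kcnd channels, 8 were higher in brain and 1 lower in both genotypes. Of 11 tested potassium pumps and cotransporters, 7 were higher in brain in both genotypes, and 4 were lower in Norad-/- and 3 in Norad+/+ mice. No gene of these lists passed the threshold between genotypes in brain or spleen or in the interaction, with 4, 9 and 11 tested in brain and 1, 4 and 10 in spleen. Their median log2 fold changes in Norad-/- brain were -0.21 for HCN channels, 0.11 for partner proteins and 0.10 for pumps and cotransporters, beside 0.02 over all genes.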

How the data were processed

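Expression was measured by RNA-seq in 12 libraries, 3 Norad-/- and 3 Norad+/+ per tissue, each treated as 1 replicate of the group its sample record names. The deposited values are FPKM, made by the authors with StringTie 1.2.2, per the submitters' processing notes. The authors filtered reads for quality and aligned them to GRCm38 with TopHat2 2.0.12, and for their own comparison they used featureCounts 1.4.6 and edgeR 3.8.6, whose output was not used here. Whether FPKM was made with regard to strand is not given in the sources used here. FPKM keeps no counts, so depth was estimated from the step of 1 read in genes with 1 annotated transcript. It was set where the largest share of their nonzero values at or below 0.1 FPKM were a small whole number of reads within 2%. That share was 41.4% to 47.3% and is no separate check of the estimate. Low values rest on few reads.

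Genes averaging 1 FPKM or more across a fit were tested two-sided with limma 3.58.1 (R 4.3.3) on log2(FPKM + 0.1), with a variance trend and Benjamini-Hochberg adjustment over all genes of the fit at 0.05. Fold changes on this scale understate changes near 0.1 FPKM. Each tissue was fitted alone for genotype, and all 12 libraries as 4 groups for tissue and the interaction. FPKM is scaled within each library, and the brain and spleen tables were deposited separately. All 96 symbols matched 1 gene of GENCODE M21, whose coordinates (GRCm38) are given, and PRE matches were counted per gene in its longest 3′ UTR. The members and lists were chosen with earlier results of these data known. Genes were named by rule: the 5 of lowest p per direction in each genotype comparison, the 10 largest tissue differences per direction, the 12 highest per tissue and the highest of each family. Others (Kcnj9, Kcnab1, Kcnq3, Kcnc4, Kcnk12 and neighbours of named genes) were chosen after their values were seen. Protein sequences were not analysed here, and some withheld items are not reported here. Alternatives were other pseudocounts, filters and scalings, no variance trend, a replicate block and leaving out each library.

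Simulated data kept each gene's level and spread but drew noise independently per gene, with sets of genes moved by 1 or 2 (log2). There the brain fit found 66.5% of genes changed by 1 and 92.5% of those changed by 2, and the spleen fit 70.5% and 91.5%. Of the calls, 4.79% in brain and 6.63% in spleen were false. Differences shared by many genes of a library were not simulated, and the real fits called 2 and 4 genes. These shares therefore do not give the power of the real fits. Tables and figures were made with Python, pandas, numpy and matplotlib.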

Additional observations from a re-analysis of the deposited data

How the results depend on the processing

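Among the genes named by rule in the tissue comparison, none past the threshold reversed its direction under any alternative run. The other channel genes that passed were not compared gene by gene. Between tissues, the median log2 difference over the channel genes tested was 3.03 in Norad-/- and 2.87 in Norad+/+ mice with a pseudocount of 1 FPKM. It was 5.89 and 5.83 with 0.01 FPKM, and 4.73 and 4.75 after quantile normalization, each over 70 genes. With no filter it was 4.02 and 4.12 (95 genes), and with a filter of 5 FPKM 6.401 and 6.278. Rescaling to TPM, with the filter applied to TPM, gave 5.28 and 5.26 (80 genes). The filter of 5 FPKM left 40 genes, of which 40 passed in Norad-/- and 39 in Norad+/+ mice. Without a single replicate, 69 to 71 passed in Norad-/- and 68 to 71 in Norad+/+ mice. The median genotype change of spleen was -0.11 with no filter (91 genes), 0.0542 with the filter of 5 FPKM (8 genes) and 0.27 after quantile normalization. In brain it was -0.0025 with the filter of 5 FPKM (47 genes) and -0.02 to 0.07 without a single replicate, below 0 without Norad+/+ replicate 3. In the interaction, 0 to 3 channel genes passed without a single replicate, and the 3 appeared without Norad-/- spleen replicate 3, where the count over all genes was 317 against 0 with every library. The genotype comparisons kept 0 channel genes under every alternative run. After rescaling to TPM, with the filter applied to TPM, the median over all genes tested was 0.10 in spleen, against -0.02 in FPKM. Between tissues it was -0.01 in Norad-/- mice, against -0.16 in FPKM.

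Whether the replicate numbers pair the libraries is not given in the sources used here, and the main fits used no pairing. Deviations of same-numbered libraries correlated at 0.061, 0.0684 and 0.11 in brain and 0.338, -0.147 and 0.29 in spleen. Differently numbered libraries correlated at -0.092 to 0.0402 in brain, below all same-numbered ones, and at -0.477 to 0.36 in spleen. Pairing or a shared batch was therefore not excluded. With a replicate block, 0 channel genes passed between genotypes in brain and 0 in spleen, and 70 and 69 passed between tissues in Norad-/- and Norad+/+ mice. Levels of channel genes near the FPKM of 1 read rest on few reads.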

Other observations

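Among channel genes under 1 FPKM on average in spleen, Kcne3, a small auxiliary subunit, was at 0.505, 0.330 and 0.358 FPKM in Norad-/- spleen, against 0.236, 0.220 and 0.123 FPKM in Norad+/+ spleen. The groups did not overlap, and without the filter on low levels its log2 fold change was 0.77 ± 0.23 (SE, limma adjusted p = 0.248). Kcnj5, a G protein-gated subunit, was at 0.305, 0.234 and 0.747 FPKM in Norad-/- spleen and 0.599, 1.75 and 0.984 FPKM in Norad+/+ spleen, with 1 Norad-/- value inside the Norad+/+ range. Kcnk15, a tandem-pore gene, was listed at 0 in all 6 spleens and was at 0.0279, 0.111 and 0.0648 FPKM in Norad-/- brain, against 0.393, 0.209 and 0.205 FPKM in Norad+/+ brain. Its values rest on few reads. Both genes were chosen after their values were seen, as was Kcne3.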
